A study of Mus musculus with 6 samples.

Results

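The genes described here keep T cells in the naive, resting state or take them through the lymph nodes. They are the transcription factor genes Klf2, Foxo1, Foxp1, Lef1, Tcf7, Satb1 and Bach2, the egress receptor gene S1pr1 and the survival receptor gene Il7r. Members were found by gene symbol in the annotation of the array, taking for each gene the transcript cluster with the highest mean. Of the 9 genes, 8 were found this way among 23410 tested transcript clusters, each with 1 cluster. Tcf7 is not listed in that annotation. Cluster 10385776 carries its name in the study's supplementary list of transcripts called alternatively spliced between the groups compared here. The values of this cluster are given beside the others without being counted among the 8. RNA came from CD4+TCRβ+ cells that had been sorted from lymph nodes (inguinal, brachial and axillary) of naive females aged 8 weeks that came from litters of both sexes. Both groups had the C57BL/6J background. B6 females were wild type, and B6-ChrYSJL females came from the consomic strain in which males carry the ChrY of SJL mice. The females of both groups carry no ChrY themselves, so that the groups differ in the ChrY of their sires. There were 3 pools of 5 mice per group and 1 Affymetrix Mouse Gene 1.0 ST array per pool. The comparison asks whether the ChrY of the sire is seen in the basal transcriptome of T helper cells of daughters. Here naive females are mice that had not been immunized, and the gate did not separate naive from memory or regulatory T cells.

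Naive T cells circulate between blood and lymph nodes and divide little until they meet antigen. FOXO1, a forkhead factor held out of the nucleus by PI3K and AKT signaling, drives the genes of KLF2 and of the IL-7 receptor chain. KLF2 in turn drives S1pr1, whose product, a receptor for sphingosine 1-phosphate, leads T cells out of the lymph node. FOXP1 represses Il7r at sites that FOXO1 also binds, and it holds naive T cells in quiescence. TCF1, the product of Tcf7, and LEF1 are paired HMG-box factors of T cell identity. SATB1 organizes chromatin loops in T cells and thymocytes, and BACH2 represses genes of effector differentiation. IL-7 keeps naive T cells alive through the receptor that Il7r encodes.

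Promoter sequence was taken from RefSeq (GRCm38.p6), which gave 18 windows for 8 of the 9 genes, each from 250 bases before to 50 bases after a gene start. It is shown for Klf2 and Tcf7, the genes in which 1 of the 3 motifs searched was found. The search covered both strands for the forkhead core GTAAACA, the TCF/LEF core ATCAAAG and the MEF2 consensus, the site of a family of MADS-box factors. The first stretch lies before the start of Klf2 at chr8:72318884-72319013 on the plus strand, and its capitals mark the match to the MEF2 consensus, which begins at position −118 from the gene start.
Klf2: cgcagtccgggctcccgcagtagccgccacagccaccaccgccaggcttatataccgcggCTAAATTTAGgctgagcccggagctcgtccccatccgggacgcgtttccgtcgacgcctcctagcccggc
The second is a short piece at 1 of the 2 starts listed for Tcf7, at chr11:52282577-52282605 on the minus strand, and its capitals mark the forkhead core.
Tcf7: cctttataggaGTAAACAgacccccgcca
The MEF2 consensus was present in 3.19% of 32851 promoter windows of all genes, the forkhead core in 3.65% and the TCF/LEF core in 3.73%. No TCF/LEF core was found in the 18 windows. A match is a run of letters and not a measured binding site.

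The differences, as B6-ChrYSJL minus B6 on the log2 scale, ran from −0.14 for Klf2 to 0.10 for Foxo1, and 7 of the 8 were above 0. None of the 8 passed an FDR of 0.05 in limma (adjusted p from 0.621 to 0.992 after Benjamini-Hochberg adjustment over all tested clusters), where 0.0171% of all tested clusters did. None had an unadjusted p under 0.05 in limma either, against 10.6% of all tested clusters (4.69% higher and 5.92% lower in B6-ChrYSJL). The median difference over the 8 was 0.06, and that over all tested clusters was −0.0036. The median size of a difference was 0.0676 for the 8 and 0.0748 for tested clusters above the background level. This level, 5.98, is the 95th percentile of 1210 odorant and vomeronasal receptor clusters, genes of the sensory epithelia of the nose. The dimmest of the 8, Bach2, averaged 8.68, so that all were measured well above it. The 95% intervals of the differences, each for its gene alone, stayed between −0.36 and 0.313. These ends correspond to 1.28-fold lower and 1.24-fold higher levels in B6-ChrYSJL. The deposited values were log2 signals normalized together over the 6 arrays, so each difference is relative to the other transcripts of the same array. The p values rest on the spread between pools, which limma draws toward a variance shared across clusters. With 3 arrays per group their precision is limited.

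**Figure D1:**
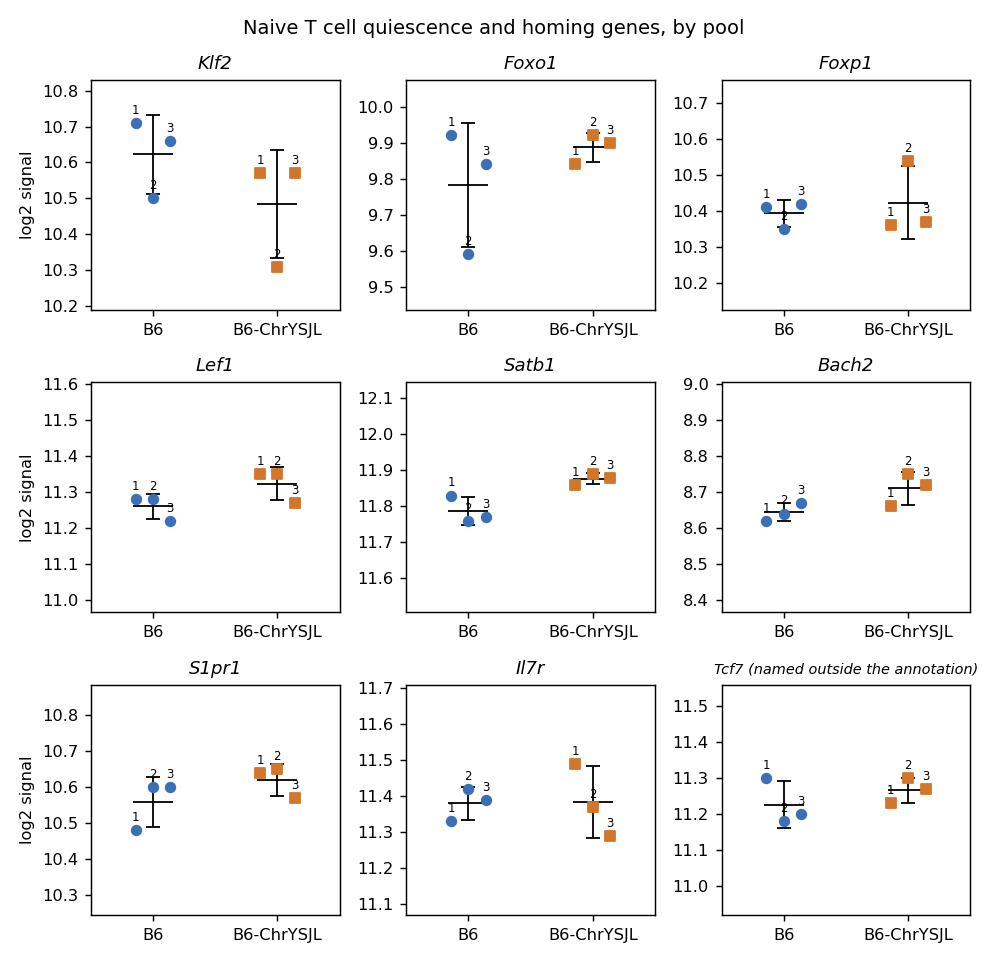
Log2 signal (vertical, every panel spanning the same range) of each gene in the 3 B6 pools (blue circles) and the 3 B6-ChrYSJL pools (orange squares), numbered by replicate; lines give the mean of each group and bars its SD. Only the Satb1 panel has no overlap between the groups, and replicate 2 is the lowest pool of both groups in the Klf2 panel.

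Klf2 was the only one of the 8 with a difference below 0. Its log2 signal was 10.71, 10.50 and 10.66 in the B6 pools and 10.57, 10.31 and 10.57 in the B6-ChrYSJL pools. Replicate 2 was the lowest pool in each strain, and the groups overlapped. The B6 mean was 10.62 ± 0.11 (SD, n = 3) and the B6-ChrYSJL mean 10.48 ± 0.15 (difference −0.14, standard error 0.09, adjusted p = 0.621 from limma). Klf2 also varied most among pools of one strain, with a pooled SD of 0.131 against a median of 0.0666 over the 8 genes. Without B6-ChrYSJL replicate 2 its difference was −0.06, and without B6 replicate 2 it was −0.20.

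Foxo1, which encodes the factor upstream of Klf2 and Il7r, had the highest difference. It measured 9.92, 9.59 and 9.84 in B6 and 9.84, 9.92 and 9.90 in B6-ChrYSJL. B6 replicate 2 stood below the other 5 pools, which lay within 0.08 of each other. The difference was 0.10 (standard error 0.09, adjusted p = 0.716 from limma) and fell to 0.01 without that pool. Foxp1, whose product opposes FOXO1 at Il7r, measured 10.41, 10.35 and 10.42 in B6 and 10.36, 10.54 and 10.37 in B6-ChrYSJL. All but B6-ChrYSJL replicate 2 lay close together, and the difference was 0.03, with a 95% interval from −0.13 to 0.20. Without that pool it was −0.03.

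Satb1, the chromatin organizer, was the only one of the 8 whose groups did not overlap, where 17.1% of all tested clusters had no overlap, 7.68% with B6-ChrYSJL higher and 9.42% with it lower. It measured 11.83, 11.76 and 11.77 in B6 and 11.86, 11.89 and 11.88 in B6-ChrYSJL, with the smallest spread of the 8 (pooled SD 0.0275). The difference was 0.09 (standard error 0.06, adjusted p = 0.626 from limma), and an exact two-sided permutation test gave p = 0.1, the smallest that 3 pools against 3 allow. Its unadjusted p was 0.173 in limma, 0.0189 in limma-trend (adjusted p = 0.322) and 0.0155 in a linear model without moderation (adjusted p = 0.434). The main fit draws the small spread of Satb1 toward that of the other clusters, and the model without moderation uses its own spread alone. Bach2, the repressor of effector genes, measured 8.62, 8.64 and 8.67 in B6 and 8.66, 8.75 and 8.72 in B6-ChrYSJL. Its groups overlapped by 1 pool (difference 0.07, standard error 0.06, adjusted p = 0.739 from limma).

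Lef1, of the paired HMG-box factors, measured 11.28, 11.28 and 11.22 in B6 and 11.35, 11.35 and 11.27 in B6-ChrYSJL, so that 2 B6-ChrYSJL pools were above every B6 pool and the third was not (difference 0.07, 95% interval −0.08 to 0.21, adjusted p = 0.73 from limma). The cluster named Tcf7 measured 11.30, 11.18 and 11.20 in B6 and 11.23, 11.30 and 11.27 in B6-ChrYSJL, so that the groups overlapped. Fitted with all 35556 deposited clusters, of which 9.66% had an unadjusted p under 0.05 in limma, its difference was 0.04 (95% interval −0.12 to 0.19, adjusted p = 0.874 from limma). The deposited values cover whole transcripts, and TCF1 isoforms that arise from different starts were not separated here. The study lists Tcf7 as alternatively spliced between these groups, a call that whole-transcript values do not address.

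Of the receptor genes, S1pr1 measured 10.48, 10.60 and 10.60 in B6 and 10.64, 10.65 and 10.57 in B6-ChrYSJL. B6 replicate 1 was the lowest pool, and the difference was 0.06 (95% interval −0.09 to 0.22, adjusted p = 0.777 from limma), or 0.02 without that pool. Its difference and that of Klf2, the factor that drives it, had opposite signs, and neither passed the test. Il7r measured 11.33, 11.42 and 11.39 in B6 and 11.49, 11.37 and 11.29 in B6-ChrYSJL. Both the highest and the lowest pool belonged to B6-ChrYSJL, and the means were 11.38 in both groups (95% interval of the difference −0.17 to 0.17, adjusted p = 0.992 from limma).

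**Figure D2:**
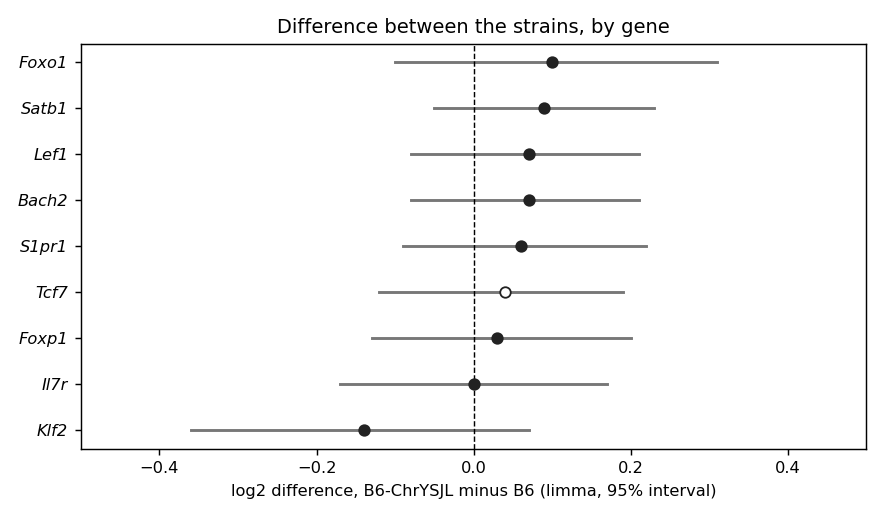
Difference in log2 signal, B6-ChrYSJL minus B6 (horizontal), for each gene, with its 95% interval from limma; filled points are the 8 genes found in the annotation and the open point is Tcf7. Every interval spans 0, from Klf2 at −0.14 to Foxo1 at 0.10.

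Of 7 other measured genes of the naive state 6 had a difference below 0 and 1, Ccr7, above it, with a median of −0.04. Of these, 2 had an unadjusted p under 0.05 in limma, both below 0 (5.92% of all tested clusters were called on that side), and none passed an FDR of 0.05. These were Igfbp4, which encodes a binding protein of insulin-like growth factors (−0.23, standard error 0.07, adjusted p = 0.361), and Dapl1, a gene known as a marker of naive T cells (−0.29, standard error 0.10, adjusted p = 0.398). The B6 mean of Igfbp4 was 11.52 ± 0.09 (SD, 3 pools) and its B6-ChrYSJL mean 11.29 ± 0.02. In both genes every B6-ChrYSJL pool lay below every B6 pool, as in 9.42% of all tested clusters. Nsg2 was at −0.12, also without overlap. Ccr7, the chemokine receptor by which naive T cells enter lymph nodes, was 11.75 ± 0.06 in B6 and 11.86 ± 0.08 in B6-ChrYSJL (difference 0.11, adjusted p = 0.619 from limma).

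Against 10.6% of all tested clusters, 1 of 16 other quiescence regulators had an unadjusted p under 0.05 in limma. This was Klf4, a Krüppel-like factor that restrains T cell proliferation, with a B6 mean of 7.59 ± 0.31 (SD, 3 pools) and a B6-ChrYSJL mean of 7.16 ± 0.07 (difference −0.43, adjusted p = 0.376 from limma). The groups overlapped through B6 replicate 2. Ets1, a factor needed for T cell survival and Il7r expression, was at 0.13 and Tsc1, an inhibitor of mTOR, at −0.13, each without overlap between the groups and with an adjusted p of 0.495 and 0.518 from limma. Cdkn1b (0.17) and Elf4 (−0.05) had no overlap either, though a further cluster of each did overlap. Of all tested clusters 7.68% had no overlap with B6-ChrYSJL higher and 9.42% with it lower. The median of the 16 was −0.04. Of 11 measured genes of lymphocyte homing and egress none had an unadjusted p under 0.05 in limma, and their median was −0.04. Cd69, whose product removes S1PR1 from the cell surface, was at 0.13 (adjusted p = 0.601 from limma), and Itgal, the α chain of the integrin LFA-1, was at −0.08.

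Downstream of the IL-7 receptor, all 8 measured genes had a difference below 0, with a median of −0.05. At an unadjusted p under 0.05 in limma, where 5.92% of all tested clusters were lower, 2 of them were called. Jak1, Stat5b, Mcl1 and Socs1 lay between −0.03 and −0.01. Cish, a STAT5-induced feedback inhibitor of cytokine signaling, was 7.94, 7.97 and 7.97 in B6 and 7.69, 7.67 and 7.69 in B6-ChrYSJL. No pool of either group came near the other group (difference −0.27, standard error 0.06, adjusted p = 0.254 from limma). Of all tested clusters 9.42% had every B6-ChrYSJL pool below every B6 pool. Pim1, a kinase gene also induced by STAT5, was at −0.22 (adjusted p = 0.4 from limma), and Bcl2, the survival gene, at −0.10 (adjusted p = 0.602). Il7r was at 0.00 in the same pools. Cish and Pim1 respond to IL-2 as well as to IL-7, and which cytokine they answered to was not measured.

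Of 10 genes that carry PI3K and AKT signals to FOXO factors, 2 had an unadjusted p under 0.05 in limma above 0 and 2 below 0. The shares of all tested clusters were 4.69% higher and 5.92% lower. The median of the 10 genes was −0.01. Pik3cd, the catalytic PI3K subunit of lymphocytes, had means of 10.34 ± 0.02 (SD, 3 pools) in the B6 and 10.15 ± 0.03 in the B6-ChrYSJL group (adjusted p = 0.375 from limma). Mtor, the growth kinase, was at −0.19, Pik3ip1, an inhibitor of PI3K, at 0.19 and Pdpk1, the kinase upstream of AKT, at 0.17, with adjusted p values of 0.386, 0.401 and 0.466 from limma. None of the 14 TCF/LEF partners and Wnt pathway genes had an unadjusted p under 0.05 in limma. Their median was −0.04, and Apc, a part of the complex that degrades β-catenin, was at −0.16 (adjusted p = 0.478), with the corepressor genes Tle1 at −0.18 and Tle3 at −0.12.

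Differences below 0 were frequent among genes of the states that follow activation. In the activated or memory list 16 of 17 measured genes had a difference below 0, with a median of −0.30. At an unadjusted p under 0.05 in limma 12 of them were called, all below 0. Of all tested clusters 5.92% were lower at that p, and 48.9% had a difference above 0. The lists were chosen with earlier results of these data known, so their counts are a description only. The lowest of the activated or memory list were Ccr2 (−0.83), S100a6 (−0.77), Klrg1 (−0.75, below background on average) and S100a4 (−0.61). Also called were Cxcr3, Maf, Ahnak, Ifng, Prdm1, Cd44, Il2rb and Gzmb, and none of the list passed an FDR of 0.05. Gzmb was below background, and Ifng averaged 5.98 in B6-ChrYSJL, at the background level. Not called were Bhlhe40 (−0.23), Id2 (−0.15), Nfil3 (−0.09), Zeb2 (−0.03, below background) and Tbx21 (0.02), the only one above 0. Ccr2 averaged 6.46 in B6 and 5.62 in B6-ChrYSJL, where it was below the background level. Prdm1, the gene of BLIMP1 and a known target of BACH2, had means of 6.88 ± 0.21 (SD, 3 pools) in the B6 and 6.57 ± 0.04 in the B6-ChrYSJL group (difference −0.30, adjusted p = 0.398 from limma). Of 14 regulatory T cell genes 10 had an unadjusted p under 0.05 in limma, all below 0, against 5.92% of all tested clusters. These included Foxp3 at −0.21, Ctla4 at −0.30, Nt5e at −0.36, Entpd1 at −0.38 and Capg at −0.47. Nrp1 was at −0.49, Tnfrsf18 at −0.20, Tnfrsf4 at −0.26 and Il10, which was below background, at −0.27. Not called were Ikzf2 (−0.18), Il2ra and Lrrc32 (each −0.02) and Gpr83 (0.18). One of the 10, Itgae, passed an FDR of 0.05 in limma (−0.87, adjusted p = 0.0218). That call was lost in 8 of 16 alternatives, with an adjusted p of up to 0.23 and differences from −0.95 to −0.83 over all 16. The study, with its own model, reported no transcript as differentially expressed between these groups at an FDR under 0.05. In bulk RNA, fewer cells of a type and less RNA per cell cannot be told apart. Averaged over their genes, the activated or memory list lay between 7.48 and 7.63 in the B6 pools and between 7.10 and 7.25 in the B6-ChrYSJL pools. The mean of the 8 quiescence and homing genes, each centred over the arrays, was 0.00, −0.05 and 0.00 in B6 and 0.03, 0.03 and 0.00 in B6-ChrYSJL, so that these groups overlapped. Whether the 2 lists differed from each other was not tested.

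The sorted cells carried the transcripts of T helper cells at similar levels. All 6 measured CD4 T cell markers (Cd4, Cd3d, Cd3e, Cd3g, Cd28 and Cd5) were above background, with differences from −0.08 to 0.08 and none at an unadjusted p under 0.05 in limma. Of all tested clusters 4.69% were higher and 5.92% lower at that p, shares to set beside each count that follows. Both CD8 markers, Cd8a (−0.54) and Cd8b1 (−0.28), had an unadjusted p under 0.05 in limma, and their mean lay between 7.42 and 7.62 in B6 and between 7.03 and 7.18 in B6-ChrYSJL. All 10 B cell markers had a difference above 0, with a median of 0.21, and 3 had an unadjusted p under 0.05 in limma, H2-Eb1 (0.37), H2-Ab1 (0.64) and Ebf1 (0.25), and their mean ranged from 6.27 to 6.35 in B6 and from 6.27 to 6.75 in B6-ChrYSJL, with Ebf1 and Ms4a1 below background. Centred over the arrays, this mean was 0.19 and 0.32 in B6-ChrYSJL replicates 2 and 3 and at or below −0.075 in the other 4 pools. Of 10 stromal markers 3 were above 0 at that p, Pdpn, Col1a2 and Col3a1, from 0.18 to 0.20. None of 6 natural killer cell markers had such a p. Only 2 of these were above background, among them Eomes (0.11), and Klra8 (0.24), Klrk1 (−0.19), Klrb1c and Ncr1 were not. Of 10 myeloid markers 1 did, Itgax (0.17), which like S100a8 (0.12) was below background, and Itgam was at −0.10. The red cell marker Alas2 was at −0.08. Among 9 immediate early genes, which can respond to cell handling, all had a difference below 0 and 3 had an unadjusted p under 0.05 in limma, Nr4a1 (−0.37), Jun (−0.30) and Ier2 (−0.30). The part of these markers in the values of the quiescence and homing genes was not tested. Between any pair of arrays Pearson's r was at least 0.9952.

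Likeness to the mean of the 8 genes, each centred, was ranked over the 6 arrays. Of 13488 other genes above background, 100 had a Pearson's r over 0.9 with that mean. The most alike were 2900026A02Rik (0.996), Eef1a2 (0.989), Barhl1 (0.988), B630019K06Rik (0.986) and Clpp (0.983), and the most opposed were Aacs (−0.996), E2f6 (−0.987), Faap100 (−0.976), Gng12 (−0.975) and Ada (−0.972). With so many genes ranked over 6 arrays, values of this size are given as a description only.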

How the data were processed

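RNA of 6 pools of sorted cells, 3 per strain, was amplified and hybridized to 1 array each. The authors summarized probe signals with RMA (background correction, quantile normalization and median polish) in Partek Genomic Suites 6.6. What they deposited is a log2 value for every transcript cluster on each array. GCOS and the build mm9 are named in the submitters' processing notes. RMA makes the distributions of the arrays equal, so a shift shared by most transcripts would not be seen. These deposited log2 values were used without further normalization.

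Of 35556 deposited clusters, 23410 with a symbol in the platform annotation entered lmFit and eBayes of limma 3.58.1 (R 4.3.3), B6-ChrYSJL minus B6, and p values were adjusted after Benjamini and Hochberg over this whole set. Symbols were updated through RefSeq gene identifiers (GRCm38.p6), and 1621 clusters with several symbols were tested but not named. The fit was tested on simulated data. Members and the 16 other gene lists were chosen with earlier results of these data known, and lists are described by counts and medians. Named are all members, Ccr7, the CD4 T cell markers, the 3 genes of each list with the smallest p, list genes at an unadjusted p under 0.05 above background, and the genes most like the mean of the 8 members found. Of list genes with a small p below background, Klrg1, Gzmb, Il10, Ebf1 and Itgax are named too. Some further list genes are named beside them. Over all tested clusters same-numbered pools did not deviate together (r from −0.036 to 0), and the main fit did not pair them. A correlation over all clusters cannot show whether single genes follow the replicate number. The unadjusted limma p of Klf2 was 0.166 in the main fit and 0.0907 with the replicate number as a block. The 16 alternatives comprised 10 other settings and each array left out. The promoter motifs were chosen after the data were seen. Python 3.11.15 with matplotlib 3.10.9 made the figures.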

Additional observations from a re-analysis of the deposited data

How the results depend on the processing

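No member passed an FDR of 0.05 in limma under any of the 16 alternatives, with a lowest adjusted p of 0.322 (Satb1). The number of the 8 genes at an unadjusted p under 0.05 was 0 and became 1 (Satb1) with limma-trend and with the unmoderated linear model, where 11.8% and 9.71% of all tested clusters had such a p. It was 0 with each replicate left out in turn. The median difference lay between 0.04 and 0.07 with a replicate left out. Of 128 differences of single members, 123 kept their sign. Il7r, near 0, turned to −0.01 with array weights and with arrays centred on their medians, and ranged from −0.05 to 0.05 with a replicate left out. Foxp1 ranged from −0.03 to 0.06 and S1pr1 from 0.02 to 0.09. With the replicate number as a block the count stayed 0 and the median 0.06, and the block changed no call of a member. The call of Itgae was lost with the block (adjusted p = 0.0668 in limma), with all deposited clusters (0.134), with the unmoderated model (0.23) and without each replicate in turn except B6 replicate 1 (0.0535 to 0.177). Over all tested clusters the number past an FDR of 0.05 was 4, between 0 and 55 under the settings that keep all arrays (55 with limma-trend, 0 with all deposited clusters and with the unmoderated model) and between 0 and 7 with an array left out. The causes were not tested. The number of arrays limits what could be seen: the median standard error of a difference was 0.0832.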
